A study of Mus musculus with 16 samples.

Results

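Retinoic acid is the signalling form of vitamin A, and the genes described here make it, break it down, bind it or carry it. The set held 10 genes chosen by symbol. These were the breakdown enzymes Cyp26a1, Cyp26b1 and Cyp26c1, the synthesis enzymes Aldh1a1, Aldh1a2 and Aldh1a3, the receptors Rara, Rarb and Rarg, and the carrier Crabp1. All 10 were found among the 47729 genes with values in every library, and 9 of them passed the filter on low values. Cyp26c1 did not.

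The libraries came from the cochlea of P4 mice (postnatal day 4), and ribosome-bound RNA was compared with whole-tissue RNA, with and without ablation of Lgr5-expressing cells. Control mice were GLAST CreERT/+; Rpl22 HA/+. DTR mice carried Lgr5 DTR-EGFP/+ in addition, a knock-in that puts the diphtheria toxin receptor under the Lgr5 locus. According to the study's methods both genotypes received diphtheria toxin and tamoxifen at P1, so that control animals differed by the absence of the receptor allele, whereas the sample labels give the control treatment as none. Tamoxifen activates Cre in cells that express GLAST (the glutamate transporter Slc1a3), and these cells then carry an HA tag on the ribosomal protein Rpl22. Each replicate was a pool of 8 cochleae from 4 mice, dissected free of the lateral wall, the spiral ganglia and the membrane of Reissner. From each homogenate 5% gave the input library and the remaining 95% went into the immunoprecipitation (IP) of tagged ribosomes. The 16 libraries fell into 4 groups of 4, namely input and IP of the controls and input and IP of the DTR mice. They held from 28089836 to 41966310 reads assigned to genes. Values are given as CPM, reads of a gene scaled to the total of its library.

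Aldh1a enzymes oxidise retinaldehyde to retinoic acid, which enters the nucleus and binds retinoic acid receptors paired with retinoid X receptors (RXR). The paired receptors sit on direct repeats of a short half-site in the DNA and switch corepressors for coactivators when the ligand binds. Cyp26 enzymes oxidise retinoic acid into inactive products and so bound the region in which it acts, and Cyp26a1 and Rarb are textbook target genes of the receptors themselves. In the developing inner ear, retinoic acid is known to take part in regional patterning and in the differentiation of the sensory epithelium.

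The DNA that such receptors recognise is shown for the 2 genes in which it was found, because these are the classical targets in the set. RefSeq windows from 250 bases before to 50 bases after the transcription start (GRCm38.p6) were read for 9 of the 10 genes, in 14 windows. Aldh1a3 had no entry. The half-sites searched were AGGTCA as the reference form, together with its variants AGTTCA, then GGGTCA and also GGTTCA, on both strands, as direct repeats with 1, 2 or 5 bases between them, and all possible mixtures of the 4 forms were allowed. Repeats with 5 bases between the half-sites stood in the windows of Rarb and Cyp26a1. In the lines that follow the half-sites are in capitals, each sequence is written 5′ to 3′ on the strand of its gene, and in Cyp26a1 the half-sites read along the opposite strand.
Rarb (chr14:16575507-16575535, minus strand): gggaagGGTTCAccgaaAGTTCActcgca
Cyp26a1 (chr19:37697770-37697798, plus strand): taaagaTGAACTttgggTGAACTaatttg
The Rarb repeat lay 53 to 37 bases before the RefSeq start, which is inside the annotated span of the gene. The Cyp26a1 repeat lay 32 to 16 bases before its start. Of all 32851 windows, 0.0974% held a repeat with this spacing, 0.268% one with 2 bases between and 0.222% one with 1 base between, while 43.7% held at least a single half-site. The Cyp26b1 window (chr6:84593761-84594060, minus strand) held none of the half-sites. A match describes the sequence and does not show that a receptor binds there.

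The labels were checked first. Lgr5, the gene of the ablated cells, measured 39.3, 40.0, 35.5 and 31.4 CPM in the control IP libraries and 8.13, 9.47, 8.61 and 11.3 CPM in the DTR IP libraries. In input it measured 63.6, 59.0, 66.1 and 64.4 CPM in control and 17.9, 11.2, 15.1 and 19.6 CPM in DTR. Neither pair of groups overlapped, and Lgr5 fell by 1.93 in IP and by 2.00 in input on the log2 scale (limma, adjusted p = 3.47e-08 and 2.23e-08). The DTR allele sits in the Lgr5 locus itself. For this gene, an effect of that allele and the loss of cells cannot be told apart. Slc1a3, whose locus drives the Cre, was present in every library but was not higher in IP. Its mean was 281 ± 14.3 CPM in input and 236 ± 21.9 CPM in IP of the controls (SD, n = 4), with a log2 fold change of -0.20 and an adjusted p of 0.102 in limma. After damage it was lower in IP than in input by 0.27 on the log2 scale (-0.27 ± 0.09 SE, limma adjusted p = 0.0299). Markers of several cell types were lower in control IP than in control input, namely 10 of 12 hair cell genes, 8 of 8 macrophage genes, 5 of 5 endothelial genes and 5 of 7 Schwann cell genes. The hair cell genes Atoh1 and Espn and the Schwann cell gene S100b were higher in IP. Of 8 supporting cell genes 3 were higher (Fabp7, Hey2 and Sox2) and 3 lower (Fgfr3, Lgr5 and Sparcl1), and of 4 genes of the greater epithelial ridge 2 were lower (Otoa and Tecta) and none higher at an adjusted p of 0.05. Of 10 mesenchymal genes 6 were also lower in control IP, as were 4 of 6 neuronal genes. So were 4 of 5 tested genes of stria vascularis and melanocytes and 3 of 3 tested blood genes. Mesenchymal transcripts were still abundant in IP, where the 10 markers summed to between 5139 and 6370 CPM in the control libraries, led by Lum. In control input the same 10 markers summed to between 7859 and 8485 CPM.

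**Figure D1:**
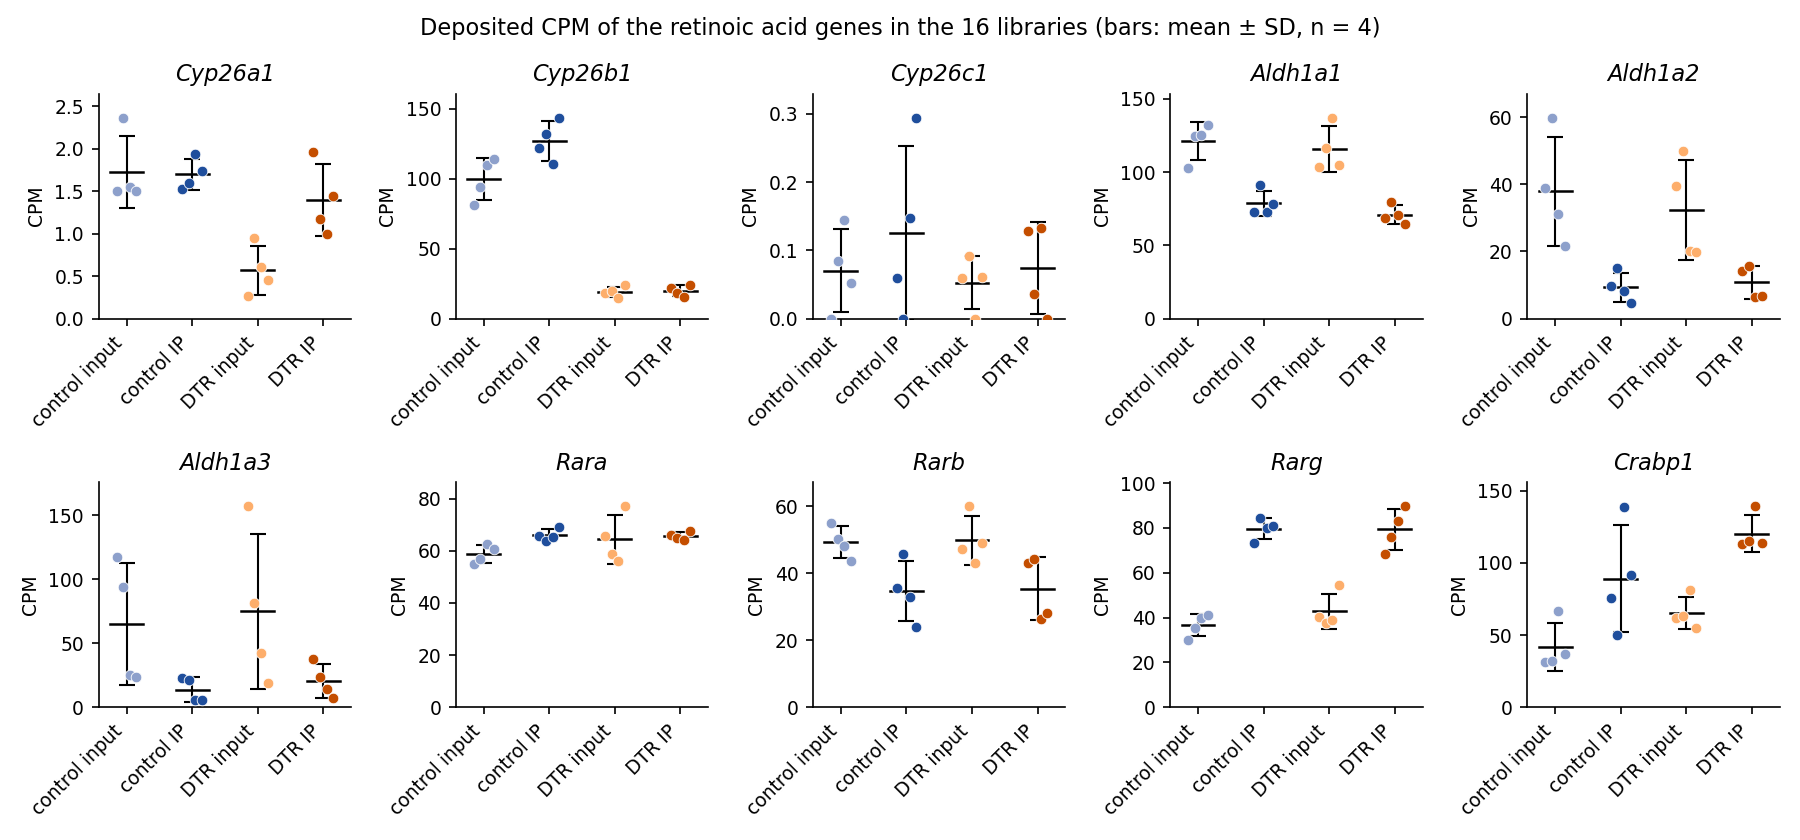
CPM of each of the 10 retinoic acid genes (vertical axes, linear and starting at 0) in the 4 groups, with 1 point per library and bars for the mean ± SD of 4 libraries. Cyp26b1 lies between 81.6 and 144 CPM in the 8 control libraries and between 14.6 and 24.3 CPM in the 8 DTR libraries, while the control and DTR points of the receptors overlap in both fractions.

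Cyp26b1 (chr6:84571414-84593908, minus strand, GRCm38), the breakdown enzyme with the highest level here, fell in both fractions after damage. In control IP the 4 libraries read 122, 132, 111 and 144 CPM, and in DTR IP they read 21.8, 18.2, 15.6 and 24.3 CPM. In whole tissue the control input libraries read 81.6, 94.2, 109.7 and 114 CPM, and the DTR input libraries read 18.2, 19.7, 14.6 and 23.9 CPM. No DTR library came near a control library in either fraction. The mean fell from 127 ± 14.1 to 19.99 ± 3.84 CPM in IP, to 15.7% of control, and from 100.003 ± 14.97 to 19.1 ± 3.84 CPM in input, to 19.1% of control (SD, n = 4). On the log2 scale, with 0.5 CPM added to quantile-normalized values, Cyp26b1 fell by 2.70 in IP (SE 0.16, limma adjusted p = 6.25e-10) and by 2.37 in input (SE 0.16, adjusted p = 3.74e-09). Its lowest control value was 4.60 times its highest DTR value in IP and 3.42 times in input, both on quantile-normalized CPM. The change in IP and the change in input differed by -0.33 ± 0.22 (SE), which did not pass (limma, adjusted p = 0.999). In these bulk libraries fewer cells that express a gene and less of its RNA per cell cannot be told apart.

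Of the 9 tested genes 1, Cyp26b1, passed an adjusted p of 0.05 in DTR IP against control IP, as lower. With the replicate number as a block Crabp1 and Aldh1a3 passed as well, as higher (adjusted p = 0.0241 and 0.0482), in a fit that called 3956 of all 16994 genes in place of 2674. Over all 16994 tested genes 7.3% were lower and 8.44% higher in that comparison. At an unadjusted p under 0.05 without the block, 2 of the 9 were lower and none higher, and edgeR and DESeq2 each called 1 gene. In DTR input against control input 2 of the 9 genes, Cyp26b1 and Cyp26a1, were lower and none higher without the block (Crabp1 was higher with it, adjusted p = 0.00613), against 5.21% lower and 7.17% higher among all tested genes. At an unadjusted p under 0.05 in input, 2 were lower and 1 was higher, and edgeR and DESeq2 each called 2. The stricter rule asked for an adjusted p under 0.05, an absolute log2 fold change of at least 1 and a separation above 1.5 between the groups. Separation is the lowest value of the higher group over the highest of the lower one. Cyp26b1 met this rule as lower in both fractions, as did 1.34% of all tested genes in IP and 1% in input. The median log2 fold change of the 9 genes was -0.03 in IP and 0.0051 in input, beside -0.0043 and -0.021 over all tested genes. The damage comparisons in IP and in input used different libraries of the same animals.

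**Figure D2:**
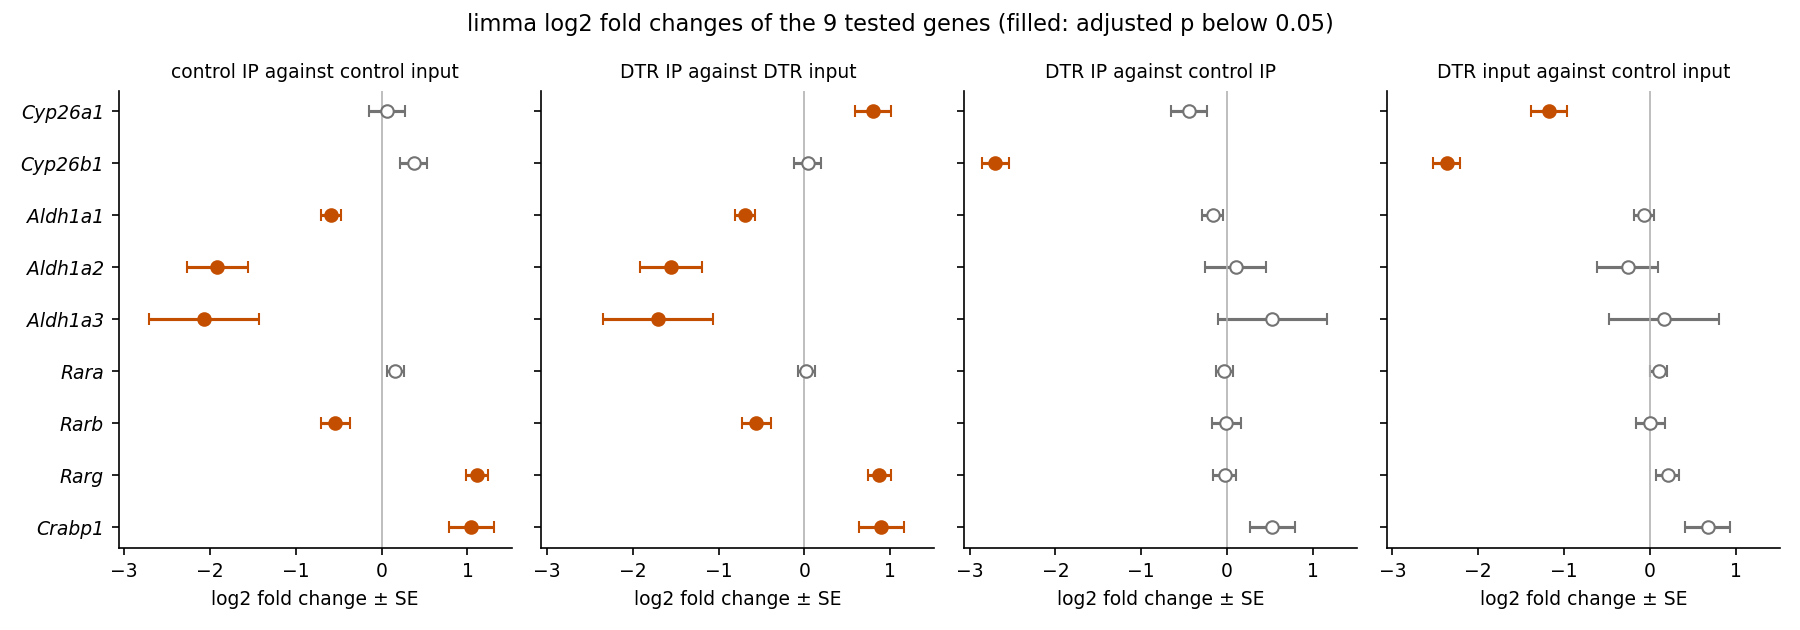
Log2 fold changes from limma (horizontal axes, ± SE) of the 9 tested genes in the 4 comparisons, with filled points for an adjusted p under 0.05. Cyp26b1 lies at -2.70 and -2.37 in the damage panels, the receptors lie near 0 there, and Rarg lies above 0 while the 3 synthesis enzymes lie below 0 in both panels of IP against input.

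Supporting cell markers moved in the same direction as Cyp26b1. Of 8 such genes, all tested, 6 fell in IP (Fgfr3, Hes5, Hey2, Lgr5, Sox2 and Fabp7) and 6 fell in input (Fgfr3, Hes5, Hey2, Lgr5, Sox2 and Prox1). Fgfr3, a growth factor receptor of pillar and Deiters' cells, went from 126 ± 19.98 to 22.3 ± 4.32 CPM in IP, a log2 fold change of -2.52 (limma, adjusted p = 1.54e-08). Hes5, a Notch effector, went from 10.9 ± 3.31 to 0.962 ± 0.613 CPM in IP, a log2 fold change of -3.13 (adjusted p = 6.44e-07). Sox2, a transcription factor of supporting cells, went from 89.9 ± 5.42 to 34.9 ± 5.39 CPM in IP (log2 fold change -1.40, adjusted p = 6.11e-07). The summed level of the 8 markers was 2341, 2565, 2176 and 2773 CPM in the control IP libraries, beside 1980, 2282, 1740 and 2074 CPM after damage. That sum overlapped between the groups because Sparcl1 led it, at 1776 ± 273 CPM in DTR IP beside 1768 ± 295 in the controls. None of the 8 was at 0 in all libraries, and the part of these cells in the Cyp26b1 result was not tested.

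Other cell markers also moved with damage. Macrophage markers rose for 5 of 8 genes in IP and 6 of 8 in input, and their sum in input was 123, 117, 114 and 122 CPM in control and 237, 164, 203 and 259.6 CPM in DTR, led by Csf1r in control and by C1qc in DTR. Mesenchymal markers rose for 6 of 10 genes in IP and for 2 of 10 in input, and their sum in IP was 6370, 5990, 5139 and 5972 CPM in control and 7607, 8142, 6649 and 7351 CPM in DTR. Of 4 markers of the greater epithelial ridge, the epithelium beside the hair cells, Fgf10 and Tecta fell in IP, by 1.18 and 0.88 on the log2 scale (limma, adjusted p = 6.78e-04 and 0.00149). In input Tecta fell by 1.10 (adjusted p = 2.04e-04), while Epyc and Otoa rose by 0.49 and 0.46 (adjusted p = 0.0432 and 0.0459). The sum of these 4 markers in IP was 6357, 6427, 6934 and 6323 CPM in control and 6079, 7094, 5442 and 5639 CPM in DTR, led by Epyc. Hair cell markers were higher for 3 of 12 genes and lower for 1 in IP, and Schwann cell markers fell for 4 of 7 genes in input. Of 5 tested markers of stria vascularis and melanocytes, Kcnj10, Kcne1 and Pmel fell in IP, and Kcnj10 and Kcne1 fell in input, where the sum of the list went from 178, 186, 135 and 133 CPM to 81.1, 63.3, 65.6 and 50.6 CPM, led by Kcnj10. None of these lists had a gene at 0 in every library, and their part in the results was not tested.

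The genes whose pattern was most like that of Cyp26b1 over the 16 libraries were, in order, Dgkb, Rnd2, Egfl6, Rassf6 and Slitrk6. Pearson's r on the log2 scale was 0.990, 0.989, 0.987, 0.986 and 0.984. These points share the 4 groups and, by pairs, the same homogenates, so that r mostly repeats the drop after damage. Slitrk6, a transmembrane protein of the inner ear epithelium, had a mean of 174 ± 23.6 CPM in IP of control mice, which in DTR mice was 14.0 ± 3.46. Rnd2, a small GTPase, likewise stood at 245 ± 11.0 CPM and 83.4 ± 3.94 CPM. Egfl6, a secreted protein with EGF-like repeats, stood at 38.5 ± 5.45 CPM and 3.77 ± 0.550 CPM.

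**Figure D3:**
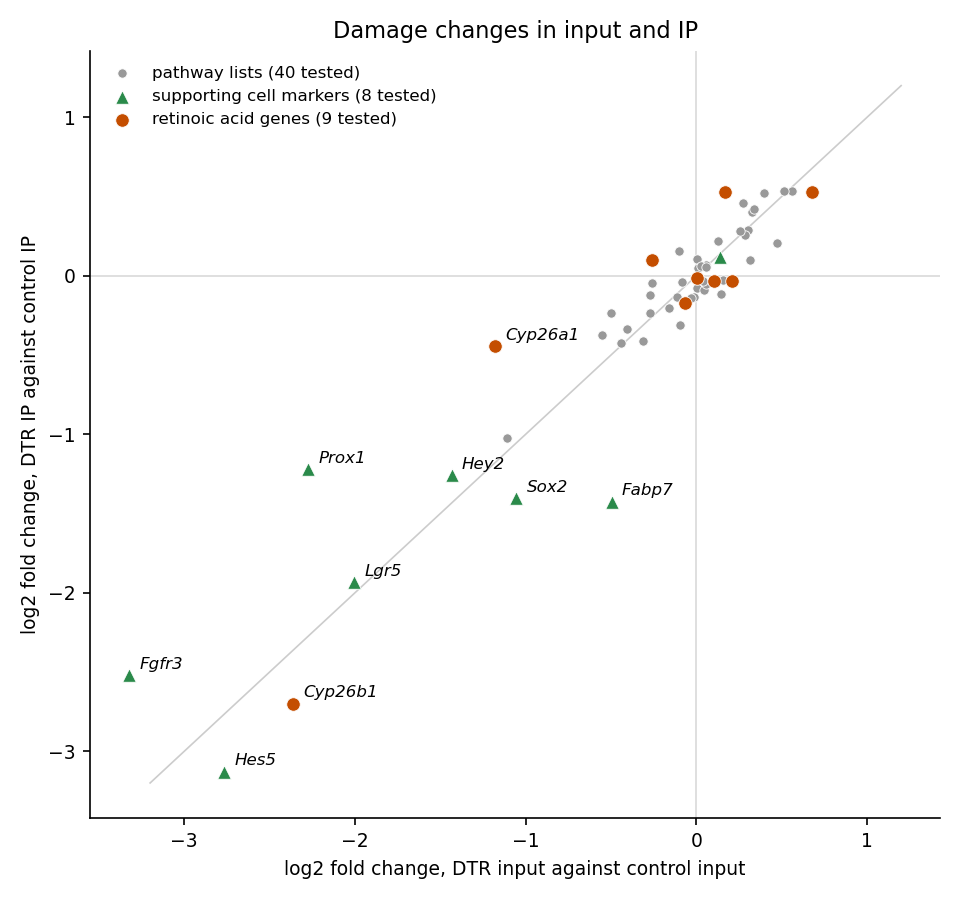
Log2 fold change after damage in input (horizontal axis) and in IP (vertical axis) for the 9 tested retinoic acid genes, 8 supporting cell markers and 40 tested genes of 5 retinoid pathway lists, with the diagonal marking equal change. Cyp26b1, at -2.37 and -2.70, lies among the supporting cell markers Lgr5, Fgfr3 and Hes5.

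Cyp26a1 (chr19:37697798-37701536, plus strand) was a low transcript, at 1.73 ± 0.425 CPM in control input (SD, n = 4), and it fell after damage in whole tissue. The control input libraries read 1.501, 2.37, 1.55 and 1.501 CPM, from 63, 84, 64 and 58 reads, and the DTR input libraries read 0.266, 0.946, 0.613 and 0.457 CPM, from 9, 31, 24 and 15 reads. The groups did not overlap, and Cyp26a1 fell by 1.18 on the log2 scale (SE 0.21, limma adjusted p = 6.49e-04). In IP the control libraries read 1.53, 1.60, 1.94 and 1.73 CPM and the DTR libraries 1.96, 1.17, 0.994 and 1.45 CPM, which overlapped. The log2 fold change there was -0.44 ± 0.21 (SE, adjusted p = 0.173). The difference between the changes in IP and in input was 0.74 ± 0.30 (SE) and did not pass (unadjusted p = 0.0228, adjusted p = 0.820). It was the one gene of the 9 with an unadjusted p under 0.05 for this difference, none passed after adjustment in limma, edgeR or DESeq2, and 0.0118% of all tested genes did so in limma. After damage Cyp26a1 was higher in IP than in input by 0.80 ± 0.21 (log2, SE, adjusted p = 0.00543), in 4 of 4 pools. In controls the same comparison gave 0.06 ± 0.21 (SE, adjusted p = 0.847). At this depth, and with 0.5 CPM added to each value, the fold changes of so low a gene are understated.

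Cyp26c1, the third breakdown enzyme, had between 0 and 9 reads in a library. Control input held 0, 3, 6 and 2 reads, control IP 2, 0, 5 and 9, DTR input 2, 3, 0 and 2, and DTR IP 4, 1, 4 and 0. These correspond to at most 0.294 CPM, where 3 reads are worth between 0.0715 and 0.107 CPM. The exact permutation test (two-sided, 4 libraries against 4, smallest possible p = 0.029) gave p = 0.514 for DTR IP against control IP and p = 0.771 for DTR input against control input. The 4 comparisons tested in this way had adjusted p-values of 0.762 to 0.771, and a difference was not detectable at this depth.

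All 3 synthesis enzymes were lower in ribosome-bound RNA than in whole tissue, in both genotypes, and none of them passed the test after damage. Aldh1a1 read 103, 124, 125 and 132 CPM in control input and 72.5, 91.1, 73.0 and 78.4 CPM in control IP. It read 103, 117, 137 and 105 CPM in DTR input and 68.9, 79.7, 70.7 and 64.7 CPM in DTR IP. The input and IP groups did not overlap in either genotype. The log2 fold change was -0.59 ± 0.12 in control (SE, limma adjusted p = 6.15e-04) and -0.69 ± 0.12 in DTR (adjusted p = 1.66e-04). Aldh1a1 was the most even of the 3 enzymes across replicates, with a mean of 121 ± 12.8 CPM in control input and 115 ± 15.7 CPM in DTR input (SD, n = 4).

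Aldh1a2, the main synthesis enzyme of early embryos, read 38.9, 59.8, 31.2 and 21.5 CPM in control input and 9.81, 14.96, 8.11 and 4.64 CPM in control IP. In DTR it read 39.4, 49.9, 20.2 and 19.7 CPM in input and 14.1, 15.8, 6.53 and 6.81 CPM in IP. Input and IP did not overlap in either genotype. The log2 fold change of IP against input was -1.91 ± 0.36 in control (SE, limma adjusted p = 3.04e-04) and -1.55 ± 0.36 in DTR (adjusted p = 0.00202).

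Aldh1a3 (chr7:66390890-66427517, minus strand) varied more between replicates, relative to its mean, than any other tested gene of the set in control input, where its mean was 65.0 ± 47.9 CPM (SD, n = 4). It read 118, 93.6, 24.9 and 23.7 CPM in control input and 23.2, 20.9, 5.64 and 5.23 CPM in control IP. After damage it read 157, 81.2, 42.4 and 19.2 CPM in input and 38.0, 23.6, 14.4 and 6.94 CPM in IP. Replicates 1 and 2 were above replicates 3 and 4 in each of the 4 groups. Within every pool, IP was below input, by log2 differences of -2.32, -2.13, -2.05 and -2.08 in the control pools and -2.03, -1.76, -1.53 and -1.41 in the DTR pools. With the pool as a block both comparisons passed (limma, adjusted p = 9.11e-09 in control and 7.76e-08 in DTR). Without the block, the log2 fold change of IP against input was -2.07 ± 0.64 in control (SE, limma adjusted p = 0.0148), and it lost its call without control input replicate 1 (-1.68, adjusted p = 0.0605), without control input replicate 2 (-1.78, adjusted p = 0.0516) or without control IP replicate 3 (-1.78, adjusted p = 0.0525). With no filter on low values it also missed the threshold (adjusted p = 0.0545). In DTR it was -1.71 ± 0.64 (adjusted p = 0.0415), with overlapping groups, and the adjusted p was between 0.0530 and 0.151 without DTR input replicate 1, 2 or 3 or DTR IP replicate 3 or 4, 0.122 with no filter and 0.0583 without quantile normalization. After damage the log2 fold change was 0.53 ± 0.64 in IP (adjusted p = 0.645). A fit blocked on replicate number gave the same value in IP with an adjusted p of 0.0482.

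Markers of some of the tissue that the dissection was meant to remove also varied with the replicate number. Neuronal markers (6 of 6 tested, led by Nefl, none at 0 in all libraries) summed to 716, 645, 209.9 and 193 CPM in control input and 636, 393, 239 and 129 CPM in DTR input. The markers of Reissner's membrane and the cochlear roof (both tested, led by Vmo1, neither at 0 in all libraries) summed to 66.1, 109.5, 58.5 and 24.8 CPM in control input and 143, 99.3, 41.1 and 15.99 CPM in DTR input. In each of these series replicate 4 was lowest. Stria markers, of the lateral wall, had replicates 1 and 2 above 3 and 4 in control input but not in DTR input (sums above), and Schwann cell markers summed to 4751, 4503, 2835 and 3375 CPM in control input but to 1907, 1646, 2479 and 1957 CPM in DTR input, where replicate 3 was highest. Neither list had a gene past the test after damage, whereas 4 of 6 neuronal genes were lower in control IP than in control input. The part of these cells in the levels of the synthesis enzymes was not tested.

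**Figure D4:**
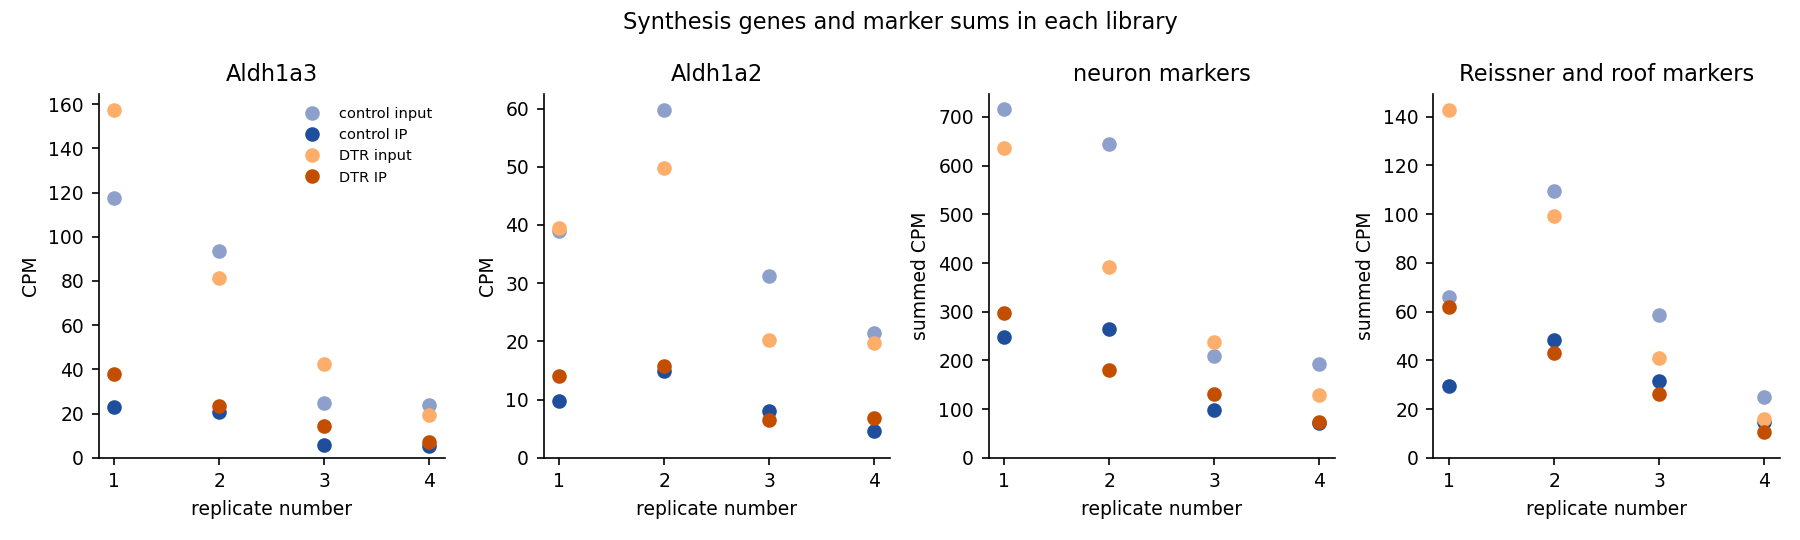
CPM of Aldh1a3 and Aldh1a2 and summed CPM of 6 neuronal markers and of the markers of Reissner's membrane and the cochlear roof (vertical axes) in each library, by replicate number and group. Replicates 1 and 2 lie above replicates 3 and 4 for Aldh1a3 in each group, and the neuronal sums split the same way in input, from 393 to 716 CPM against 129 to 239 CPM.

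None of the 3 receptors passed the test after damage, and their control and DTR libraries overlapped in both fractions. They were divided differently between ribosome-bound RNA and whole tissue. Rarg (chr15:102234938-102257517, minus strand) read 73.4, 84.4, 79.9 and 80.8 CPM in control IP against 30.0, 35.5, 39.9 and 41.1 CPM in control input. In DTR it read 68.1, 76.1, 83.1 and 89.7 CPM in IP against 40.0, 37.4, 39.1 and 54.5 CPM in input. Every IP library was above every input library. Rarg was higher in IP by 1.11 ± 0.13 in control (log2, SE, limma adjusted p = 2.91e-06), which is 2.17 times the input mean, and by 0.87 ± 0.13 in DTR (adjusted p = 4.98e-05). The change after damage was -0.03 ± 0.13 in IP (adjusted p = 0.915) and 0.21 ± 0.13 in input (adjusted p = 0.381).

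Rarb (chr14:16430839-16819156, minus strand) went the other way. It read 55.1, 50.2, 48.0 and 43.7 CPM in control input and 35.7, 45.8, 33.0 and 24.0 CPM in control IP, with 1 IP library inside the range of the input libraries. In DTR it read 47.2, 60.0, 43.1 and 48.9 CPM in input and 42.9, 44.2, 26.4 and 28.0 CPM in IP, again with 1 IP library inside the input range. The log2 fold change of IP against input was -0.54 ± 0.17 in control (SE, limma adjusted p = 0.0155) and -0.56 ± 0.17 in DTR (adjusted p = 0.0131). The first missed the threshold in edgeR (-0.46, adjusted p = 0.0566) and without control IP replicate 4 (-0.41, adjusted p = 0.0593), and the second without DTR input replicate 2 (-0.46, adjusted p = 0.0529) or DTR IP replicate 3 (-0.44, adjusted p = 0.0543). After damage Rarb, whose promoter repeat is printed above, had log2 fold changes of -0.01 ± 0.17 in IP (adjusted p = 0.974) and 0.0051 ± 0.17 in input (adjusted p = 0.991). Exons of Rarb overlap those of Top2b and Gm48162 on the other strand. Since the strand setting of the counting is not given in the sources used here, reads of these genes cannot be told apart there.

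Rara read 55.1, 56.8, 62.6 and 60.5 CPM in control input and 65.8, 63.8, 65.1 and 69.0 CPM in control IP. Although these 4 and 4 values did not overlap, the difference was small, and the log2 fold change of 0.16 ± 0.10 (SE) did not pass (limma, adjusted p = 0.214). In DTR the IP libraries averaged 65.7 ± 1.53 CPM and the input libraries 64.3 ± 9.38 CPM (SD, n = 4). After damage Rara had log2 fold changes of -0.03 ± 0.10 in IP (adjusted p = 0.869) and 0.10 ± 0.10 in input (adjusted p = 0.607).

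Crabp1 (chr9:54764748-54773110, plus strand), a cytosolic protein that holds retinoic acid and delivers it to breakdown enzymes, was higher in IP than in input. It read 31.1, 32.2, 66.6 and 36.9 CPM in control input and 75.5, 50.4, 139 and 91.7 CPM in control IP. In DTR it read 61.7, 63.3, 81.5 and 54.8 CPM in input and 113, 115, 139 and 114 CPM in IP. Replicate 3 was the highest library of each group, and the control groups overlapped because of control input replicate 3, while the DTR groups did not. The log2 fold change of IP against input was 1.04 ± 0.26 in control (SE, limma adjusted p = 0.00352) and 0.90 ± 0.26 in DTR (adjusted p = 0.0104), with IP above input in 4 of 4 pools of each genotype. After damage it was 0.53 ± 0.26 in IP (adjusted p = 0.194) and 0.68 ± 0.26 in input (adjusted p = 0.109), and neither passed. With the replicate number as a block both passed (adjusted p = 0.0241 in IP and 0.00613 in input), with DTR above control in 4 of 4 number pairs in each fraction. Without control IP replicate 3 the value in IP was 0.77 (adjusted p = 0.0482), and without control input replicate 3 the value in input was 0.93 (adjusted p = 0.0183).

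Taking IP against input over the whole set, 2 of 9 genes were higher and 4 lower in control, beside 19.3% higher and 20.7% lower of all tested genes. In DTR 3 were higher and 4 lower, beside 18.6% higher and 20.5% lower. The stricter rule was met by Rarg and Aldh1a2 in control and by none of the 9 in DTR, beside 7.68% and 5.77% of all tested genes in either direction. In the controls Cyp26b1 itself had a mean of 100.003 ± 14.97 CPM in input and 127 ± 14.1 CPM in IP (SD, n = 4), and its log2 fold change of 0.37 ± 0.16 (SE) missed the threshold (limma, adjusted p = 0.0674). It passed in the fit with the pool of animals as a block (adjusted p = 0.0103), in edgeR (adjusted p = 0.0437), in DESeq2 (adjusted p = 0.0492), in a fit of the compared groups alone (adjusted p = 0.0412), with the trend on gene length removed (adjusted p = 0.0307) and without control input replicate 4 (0.44, adjusted p = 0.0497), and IP was above input in 4 of 4 control pools.

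Levels were compared between genes as CPM per kilobase of exon. In control IP the order was Crabp1 (111 ± 46.3), Cyp26b1 (23.8 ± 2.63), Rarg (18.7 ± 1.08), Aldh1a1 (15.9 ± 1.76), Rara (15.1 ± 0.508), Rarb (6.58 ± 1.71), Aldh1a2 (4.14 ± 1.90), Aldh1a3 (2.98 ± 2.09), Cyp26a1 (0.857 ± 0.0917) and Cyp26c1 (0.0717 ± 0.0732), each as the mean and SD of 4 libraries. The ranges of Rarg and Aldh1a1, of Aldh1a1 and Rara, of Rarb and Aldh1a2, and of Aldh1a2 and Aldh1a3 overlapped, while the other neighbours did not overlap. In DTR IP Cyp26b1 stood at 3.73 ± 0.718 CPM per kilobase, in place 8 of 10, with a range that overlapped that of Aldh1a3 in place 7. In control input the order among the synthesis enzymes was Aldh1a1 (24.5 ± 2.59), Aldh1a2 (16.7 ± 7.19) and Aldh1a3 (14.1 ± 10.4), with overlapping ranges between neighbours.

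The other genes of the retinoid pathway were read from 5 lists with 57 genes, of which 40 were tested. In DTR IP against control IP 5 were higher and 2 lower, beside 8.44% and 7.3% of all tested genes, and in DTR input against control input 3 were higher and 2 lower, beside 7.17% and 5.21%. The median log2 fold change of the 40 was -0.03 in IP and 0.02 in input. In control IP against control input 10 were higher and 9 lower, beside 19.3% and 20.7% of all tested genes, with a median of 0.04. In DTR IP against DTR input 9 were higher and 10 lower, beside 18.6% and 20.5%, with a median of 0.05. The median over all tested genes was -0.0012 in control and -0.027 in DTR.

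Of the 15 genes that interconvert retinol and retinaldehyde, 10 were tested and 1 changed after damage. Adh1, an alcohol dehydrogenase that can oxidise retinol, had an IP mean of 2.04 ± 0.581 CPM in control and 0.943 ± 0.332 CPM in DTR. It fell by 1.02 in IP (log2, SE 0.25, limma adjusted p = 0.00803) and by 1.11 in input (SE 0.25, adjusted p = 0.00516). In control it was also lower in IP than in input, by a log2 fold change of -1.41 (adjusted p = 1.83e-04). Rdh13, a retinol dehydrogenase family member of mitochondria, was higher in control IP than in control input, at 33.4 ± 5.25 against 15.3 ± 2.91 CPM (log2 fold change 1.10, adjusted p = 2.01e-05). Rdh10, which makes retinaldehyde from retinol in the embryo, was also higher in IP (0.70, adjusted p = 6.69e-04). The median of the 10 was -0.08 in IP and -0.02 in input after damage.

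Of 11 genes of retinol uptake, transport and storage, 6 were tested. Stra6, the membrane receptor that takes up retinol, was lower in control IP than in control input by a log2 fold change of -0.74 ± 0.14 (SE, limma adjusted p = 4.21e-04). The median of the 6 was -0.08 in IP and -0.0051 in input after damage.

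All 5 genes of retinoic acid carriers and RXR partners were tested. Rxrg, an RXR, had an IP mean of 33.3 ± 3.48 CPM in control and 25.4 ± 2.76 CPM in DTR, and it fell by 0.42 in IP (log2, SE 0.14, limma adjusted p = 0.04995, just under the threshold) and by 0.44 in input (SE 0.14, adjusted p = 0.0486). It was higher in IP than in input in control by 0.51 ± 0.14 (SE, adjusted p = 0.00781). Rxra, another RXR, was lower in control IP than in control input by a log2 fold change of -0.83 ± 0.12 (adjusted p = 2.09e-05), and Fabp5, a fatty acid carrier that also binds retinoic acid, by -0.88 ± 0.15 (adjusted p = 1.28e-04). The median of the 5 was -0.23 in IP and -0.10 in input after damage.

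Of 13 nuclear receptor coregulators, all tested, 3 rose after damage in each fraction and none fell at an adjusted p of 0.05, beside 8.44% of all tested genes higher in IP and 7.17% in input. Crebbp, a histone acetyltransferase, rose from 116 ± 14.1 to 168 ± 26.9 CPM in IP (log2 fold change 0.54 ± 0.12, SE, limma adjusted p = 0.00313), and Ep300, its close relative, from 32.0 ± 2.87 to 47.5 ± 3.18 CPM (0.54 ± 0.13, adjusted p = 0.00816). The coactivator Ncoa3 rose in IP from 28.5 ± 3.59 to 41.9 ± 4.71 CPM (0.52 ± 0.14, adjusted p = 0.0156). In input the third gene was Ncoa2 (0.47 ± 0.13, adjusted p = 0.0243). Ncor1, a corepressor, was higher in control IP than in control input (0.49 ± 0.09, SE, adjusted p = 2.71e-04), and Ncoa1, a coactivator, was lower (-0.74 ± 0.11, adjusted p = 2.41e-05). The median of the 13 was 0.21 in IP and 0.13 in input after damage.

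Of 13 genes known to respond to retinoic acid, 6 were tested, and the Hox genes Hoxb1, Hoxd4 and Hoxa5 had no read in any library. Tgm2, a transglutaminase, rose in IP from 17.8 ± 2.10 to 24.8 ± 1.22 CPM (log2 fold change 0.42 ± 0.14, SE, limma adjusted p = 0.0409), and in control it was lower in IP than in input (-0.64 ± 0.14, adjusted p = 9.51e-04). The median of the 6 was -0.03 in IP and -0.13 in input after damage.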

How the data were processed

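The 16 files, 1 per library, hold CPM, which per the study's methods the authors made from paired-end SMART-Seq v4 libraries. Their methods name HISAT2 2.0.4 on GRCm38 with HTSeq counts. The submitters' processing notes name TopHat instead, and annotation release and strand setting are not given in the sources used here. Deposited CPM values above 0 were whole reads in 100% of cases (within 0.01 reads or a relative 1e-06). Genes listed as NA in every library (2587 of 50316) were left out. The libraries stayed in the groups and under the replicate numbers of their labels.

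CPM were quantile normalized over all genes with values, and log2(CPM + 0.5) was tested for the 16994 genes that reached 0.5 CPM in every library of some group, in limma 3.58.1 (R 4.3.3, mean-variance trend, all 16 libraries, group means, two-sided). P-values were adjusted over all tested genes by Benjamini-Hochberg. For the separation of groups, values under 1.077 CPM (the 10th percentile of tested values) were raised to it. The study's methods name DESeq2, which needs counts, so that edgeR 4.0.16 and DESeq2 1.42.0 on the recovered reads were alternatives. The first called 6898 genes in control IP against control input and 2682 in DTR IP against control IP. P-values measure the spread between the libraries of a group, each from another pool of animals. Input and IP of the same homogenate entered the main fit as separate libraries. For IP against input and for the difference of changes, those p-values therefore do not measure the spread of differences within pools. Only the fit with the pool as a block used that pairing. The script for the fit was tested on simulated data.

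Same-numbered libraries deviated together: the mean correlation of their deviations from the group means was 0.373 and 0.407 for input and IP of 1 homogenate, by the design, and 0.388 and 0.357 for control and DTR, with every pair at 0.288 or more. The block on this number was an alternative.

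The 10 genes and the pathway and marker lists were chosen with earlier results of these data known. Named from the lists are at most 4 genes with the largest change past the test without overlap in DTR IP against control IP and at most 2 in control IP against control input. Others named after their values were seen are Rdh10, Rdh12, Rxrg, Ncoa2 and the marker genes. Genes most like Cyp26b1 are the 5 with the highest r. Gene positions and exon lengths are from GENCODE M21, and promoter sequences from RefSeq. Alternatives changed the scaling, the pseudocount, the filter, the libraries in the fit, the tool, a trend on gene length, the call rule and each library in turn.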

Additional observations from a re-analysis of the deposited data

Results flagged for a closer look

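In 4 of the 40 sets of 4 libraries (10 genes in 4 groups), 1 library stood apart, its gap to the nearest other library taking more of the range of the set than Dixon's 95% value for 4 allows. Chance alone flags about 1 in 20 such sets. Cyp26a1 in control input was highest in replicate 2, at 2.37 CPM. Rarg in DTR input was highest in replicate 4, at 54.5 CPM, and without that library the change after damage in input still missed the threshold. Crabp1 was highest in replicate 3 of control input, at 66.6 CPM, and in replicate 3 of DTR IP, at 139 CPM. The cause was not tested.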

How the results depend on the processing

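Of 272 alternative counts of genes past the threshold, 257 stayed within 1.5 times the reported count. Of 1201 alternative fold changes of single genes, 1137 kept their direction and their side of the threshold, 15 missed it, 11 newly passed it and 38 changed sign. Under the stricter rule the members called were 2 in control IP against control input, 0 in DTR IP against DTR input (beside 7.68% and 5.77% of all tested genes) and 1 in DTR input against control input. With a minimum of 2 CPM, which leaves out Cyp26a1, 1 member was called in DTR input against control input. In the paired fit with the replicate block, 3 members (Cyp26b1, Crabp1 and Aldh1a3) were called in DTR IP against control IP and 8 pathway genes in DTR input against control input. Calls rose over all genes too, from 2674 to 3956 in IP and from 2104 to 3016 in input, and the block took away no call of a member. Pathway genes in DTR IP against control IP numbered 4 with no filter on low values and 4 with only the compared groups in the fit. Leaving out 1 library at a time gave 1 to 2 members (2 without control IP replicate 3) and 4 to 7 pathway genes in DTR IP against control IP (4 without control IP replicate 2 or 3 or DTR IP replicate 3), and 3 to 5 pathway genes in DTR input against control input (3 without control input replicate 4 or DTR input replicate 1 or 4). Cyp26b1 kept a log2 fold change between -2.81 and -2.60 in IP and between -2.47 and -2.27 in input. Cyp26a1 in DTR input against control input ranged from -1.67 with a pseudocount of 0.1 to -0.88 with 1 and kept its call. For these settings the cause was not tested, apart from the lower number of genes that a stricter filter tests. Depth limits Cyp26c1 and, in DTR input, Cyp26a1.

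The changes of sign concerned fold changes whose reported adjusted p was 0.847 or more, and none of them passed the threshold under the alternative either. Not all of these lay near 0. The difference of changes for Aldh1a3 was between 0.33 and 0.46 in the alternatives that kept every library. All values here are log2. Without quantile normalization Cyp26a1 in control IP against control input was -0.0049, Rarb in DTR IP against control IP 0.029 and its difference of changes between IP and input 0.019. With CPM centred on the median Cyp26a1 in control IP against control input was -0.011 and Rarb in DTR input against control input -0.0029, and DESeq2 gave -0.017 for the latter. With the trend on gene length removed Cyp26a1 in control IP against control input was -0.070, and in DTR IP against control IP Rara was 0.0094, Rarb 0.015 and Rarg 0.014. Leaving out 1 library at a time gave ranges that crossed 0. In DTR IP against control IP these were -0.11 to 0.31 for Aldh1a2, -0.067 to 0.0091 for Rara, -0.14 to 0.10 for Rarb and -0.11 to 0.062 for Rarg. In DTR input against control input they were -0.31 to 0.69 for Aldh1a3 and -0.089 to 0.054 for Rarb. In DTR IP against DTR input they were -0.070 to 0.14 for Cyp26b1 and -0.023 to 0.11 for Rara, and in control IP against control input -0.0018 to 0.15 for Cyp26a1. For the difference of changes they were -0.16 to 0.84 for Aldh1a3, -0.14 to 0.0999 for Rarb and -0.41 to 0.097 for Crabp1.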
